A study of Homo sapiens with 6 samples.

Results

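The genes described here encode RNA polymerase subunits, Mediator, Integrator and the factors that start and extend transcription. They were chosen by symbol alone, as every gene of the deposited table of alternative polyadenylation (APA) whose symbol begins with POLR1, POLR2 or POLR3, with MED, TAF, GTF, SUPT, INTS or AFF and a digit, or with ELL, TCEA, TCERG, CTR9, PAF1, CCNT, CCNK, CDK7, CDK9, CDK12 or CDK13. This gave 41 members among 2723 genes. They were 12 polymerase subunits, 10 Mediator subunits, 7 general transcription factor subunits, 4 SUPT genes, 2 TAFs, 2 ELL genes, 2 cyclin T genes, cyclin K and a single Integrator subunit, INTS4. No gene with an AFF, TCEA, TCERG, CTR9, PAF1, CDK7, CDK9, CDK12 or CDK13 name was in the table.

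The study used HL-60, an established human line from a promyelocytic leukemia. It compared OE-CFIm25 cells, which overexpress CFIm25 (3 samples), with OE-control cells, which carry the empty vector (3 samples). In OE-CFIm25 the coding sequence of CFIm25 was delivered by lentivirus and driven by the EF-1α promoter, and OE-control had the same backbone without it. Both populations were selected with puromycin and were treated with PMA, a phorbol ester that moves these cells toward macrophages, at 3 nM for 6 h. The libraries were QuantSeq 3′ mRNA libraries, in which reverse transcription starts at the poly(A) tail, so that reads mark the polyadenylation site (PAS) that was used.

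For each gene the deposited table named a proximal PAS (pPAS) and a distal PAS (dPAS), which were its most used PASs within the 3′ UTR. These positions were given per gene and not per sample, and were the only values used here. The table's columns on the change between OE-CFIm25 and OE-control are the authors' own comparison and were not used, so no difference in PAS usage between OE-CFIm25 and OE-control is given for any gene. What follows describes the sites themselves: which 3′ UTRs would end at the listed sites, and which sequences lay there. Whether each such 3′ UTR was made in these cells was not tested. A position has no replicate and no error, and the number of reads behind each PAS was not used here. No expression level was used either, so the labelled cell type was not checked against markers. Values of the members stand beside those of all 2723 genes, which include them, with no test.

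RNA polymerase I makes the large ribosomal RNA precursor, RNA polymerase II makes mRNAs and many small nuclear RNAs, and RNA polymerase III makes tRNAs and 5S ribosomal RNA. Mediator joins DNA-bound activators to RNA polymerase II at promoters. P-TEFb and the ELL proteins release and extend the paused polymerase, and Integrator cleaves nascent RNA at snRNA genes and at paused polymerases. The same RNA polymerase II tail that some of these factors, such as P-TEFb, act on recruits the machinery that cuts and polyadenylates the transcript. That machinery reads a poly(A) signal shortly before the cut, which in genomic letters is AATAAA or, as the commonest variant, ATTAAA. CFIm25 binds UGUA farther upstream, written TGTA in DNA. An mRNA cut at the dPAS keeps a longer 3′ UTR than one cut at the pPAS, with the same protein.

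The PASs of a pair lay a median of 694 nt apart in the 41 members and 760 nt in all genes. The middle 50% of pairs spanned 363 to 1806 nt in the members and 256 to 1756 nt in all genes. Pairs under 100 nt apart made up 4 members (9.76%) and 10.8% of all genes. Pairs 2500 nt or more apart made up 6 members (14.6%) and 15.6% of all genes. The pairs of the members ran from 30 to 4143 nt.

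**Figure D1:**
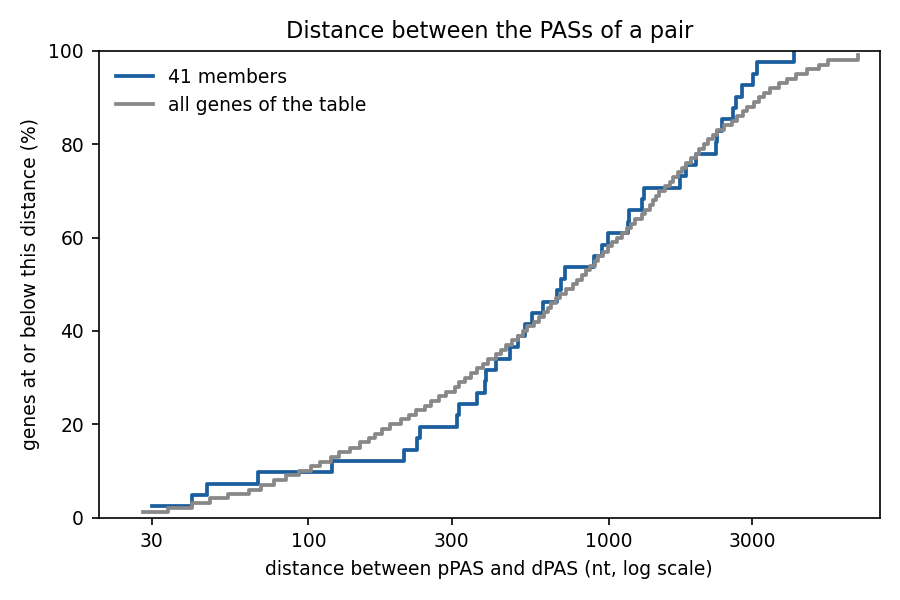
Cumulative distribution of the distance between pPAS and dPAS, with distance in nt on a log axis and the percent of genes at or below it on the vertical axis, for the 41 members (blue) and all 2723 genes (grey). The curves lie close together around their medians of 694 and 760 nt.

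Measured from the stop codon, the long 3′ UTR, up to the dPAS, had a median of 1828 nt in the members and 1753 nt in all genes. The short 3′ UTR, up to the pPAS, had a median of 524 nt in the members and 582 nt in all genes. The long form was 2.31 times the short one at the median of the members, and 2.23 times in all genes. It was over 2 times the short form in 23 members (56.1%), against 54.2% of all genes. All 41 members had both sites inside the 3′ UTR part of their last exon, or at most 24 nt past its end, as did 2704 of all genes. MED22 and POLR3C did so only once small gaps in the mapped annotation were closed. In what follows, 3′ UTR lengths in parentheses are the long and then the short form.

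**Figure D2:**
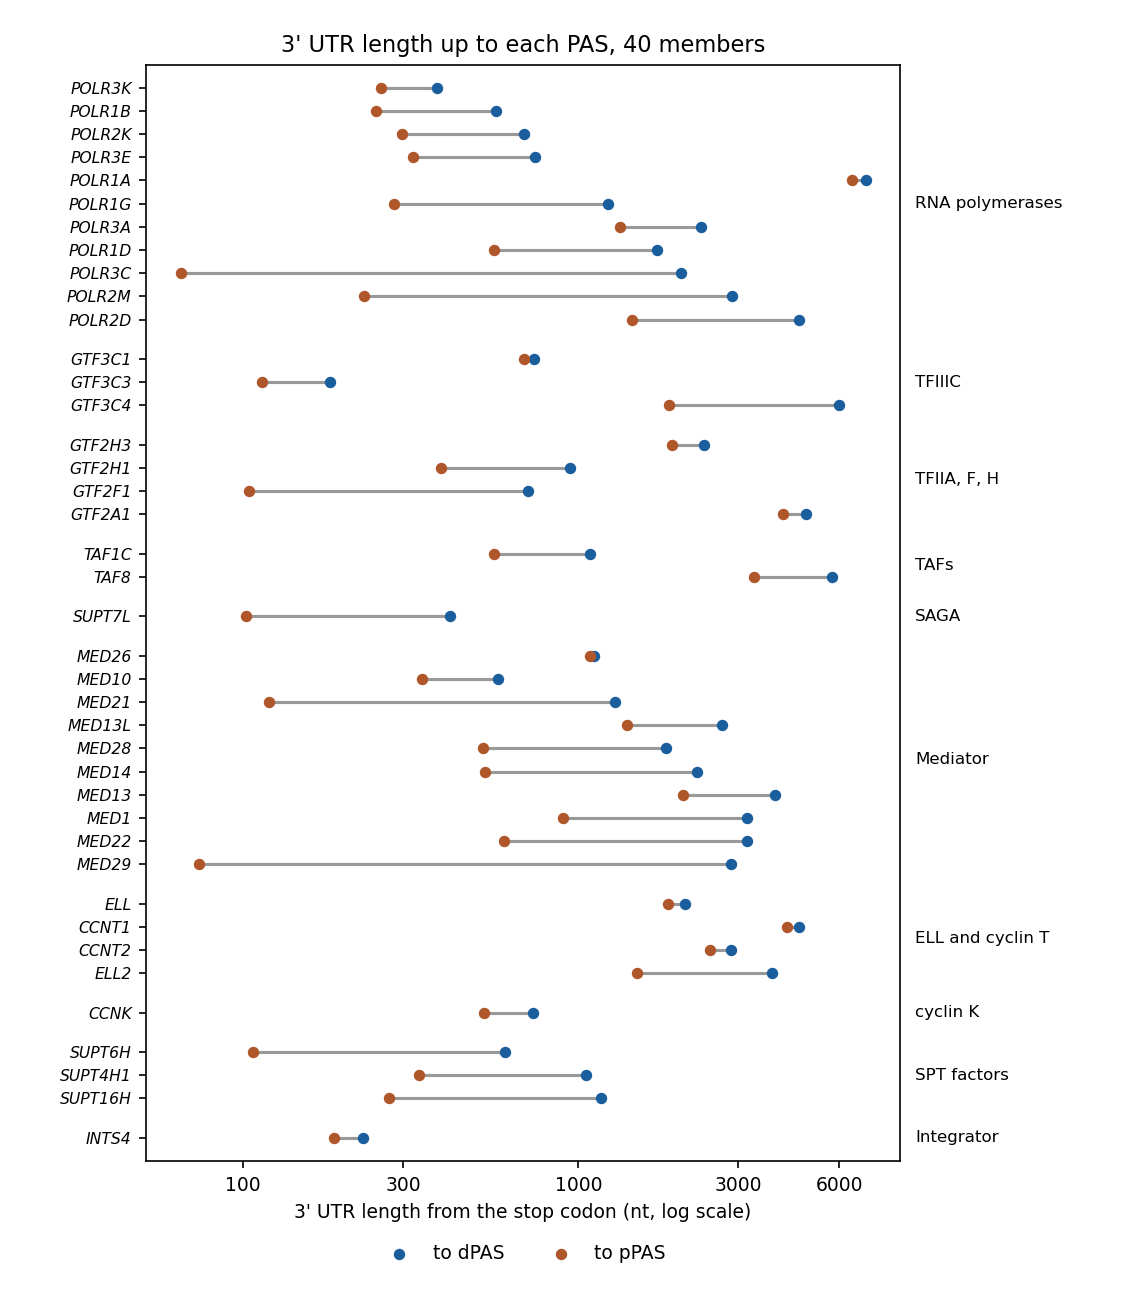
Length of the 3′ UTR from the stop codon to the dPAS (blue) and to the pPAS (orange) of 40 members, in nt on a log axis, grouped by role and ordered by PAS distance within a role. MED29 and POLR3C have the longest connecting lines, because their short forms are 74 and 65 nt, whereas the MED26 points nearly coincide.

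Of the polymerase subunits, 12 were in the table, with a median PAS distance of 973 nt. The pairs of the 4 RNA polymerase I genes were 317 nt apart in POLR1B, the second-largest subunit, 671 nt in POLR1A, the largest subunit, 948 nt in POLR1G and 1160 nt in POLR1D, which is shared with RNA polymerase III. POLR1A had the longest 3′ UTRs of all 41 members, 7204 nt up to the dPAS and 6533 nt up to the pPAS. Its distance was thus a small part of a long 3′ UTR, and the long form was only 1.10 times the short one. In POLR1D the long form was 3.07 times the short one, with 1720 and 560 nt (1457 and 297 nt by the transcript with the longest last exon), and in POLR1G 4.36 times, with 1230 and 282 nt.

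RNA polymerase II was represented by 3 genes. POLR2D encodes the stalk subunit RPB4, and its pair was the widest among the polymerases, at 3113 nt (3′ UTRs of 4554 and 1441 nt). POLR2M, also known as Gdown1, a protein that binds RNA polymerase II and makes it depend on Mediator, had a pair 2647 nt apart (2877 and 230 nt). POLR2K, a small subunit shared by all nuclear RNA polymerases, had a pair 390 nt apart (687 and 297 nt). By symbol, the median distances were 809.5 nt for the 4 POLR1 genes, 2647 nt for the 3 POLR2 genes and 998 nt for the 5 POLR3 genes. With so few genes the POLR2 value is that of POLR2M itself, and the shared subunits POLR1D and POLR2K were counted by symbol.

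Among the RNA polymerase III subunits, POLR3K had the closest pair, at 120 nt. POLR3K, which takes part in RNA cleavage and termination by the enzyme, had 3′ UTRs of 378 and 258 nt. POLR3C, a subunit that only RNA polymerase III has, had a short 3′ UTR of 65 nt, the shortest of the members, and a long one of 2021 nt, 31.1 times the short. POLR3A, the largest subunit, had a pair 998 nt apart, and POLR3E one 420 nt apart.

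The sequences ending at the PASs of POLR2D, the widest polymerase pair, and POLR3K, the closest, are shown because they differ in the signal. They run 5′ to 3′ in the sense of the mRNA, in hg19 coordinates, with poly(A) signals and TGTA in capitals.
POLR2D dPAS (chr2:128601127-128601156, minus strand): aatactgttAATAAAaagcactaaatatgc
POLR2D pPAS (chr2:128604240-128604269, minus strand): ctggagaaaAATAAAattgcaattctactt
POLR3K dPAS (chr16:97052-97081, minus strand): catgtccctaaatatttaactgttacttgt
POLR3K pPAS (chr16:97172-97201, minus strand): cataactaaatatgctctgTGTAaagtcct
POLR2D had AATAAA at each PAS, starting 21 nt before the cut in both, with the PAS base itself counted as 1. POLR3K had neither AATAAA nor ATTAAA at either PAS, and its pPAS window held TGTA and the single-base variant ACTAAA.

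Among the initiation factors, TFIIIC, which recognises tRNA promoters for RNA polymerase III, spanned nearly the whole range of the list. GTF3C4 had the widest pair of all 41 members, 4143 nt, with 3′ UTRs of 6007 and 1864 nt. GTF3C1, the largest TFIIIC subunit, had PASs 46 nt apart, and GTF3C3 had PASs 68 nt apart, so that their long forms were 1.07 and 1.60 times the short ones. The stretch kept only in the long GTF3C4 mRNA held 29 TGTA, the most of any member, and 3 Pumilio motifs (TGTANATA, which contains TGTA). The much shorter stretches of GTF3C1 and GTF3C3 held 1 TGTA each. Per kb the order was reversed, with 7 TGTA in GTF3C4, 21.7 in GTF3C1 and 14.7 in GTF3C3, against a member median of 6.17.

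The 4 general factors of RNA polymerase II were narrower in range, at 469 nt in GTF2H3 and 556 nt in GTF2H1, both subunits of TFIIH, which opens the promoter, 602 nt in GTF2F1, the large subunit of TFIIF, and 694 nt in GTF2A1, which encodes TFIIA α and β. Their 3′ UTRs were not alike, since GTF2A1 had 4768 and 4074 nt and GTF2F1 had 706 and 104 nt. All 4 had AATAAA at the dPAS. Of the TAFs, TAF8, a TFIID subunit, had a pair 2386 nt apart (5727 and 3341 nt), and TAF1C, which belongs to the RNA polymerase I factor SL1, had a pair 525 nt apart (1085 and 560 nt). SUPT7L, a subunit of the coactivator SAGA, had a pair 312 nt apart (414 and 102 nt).

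The 10 Mediator genes had the highest median distance of the roles with more than 2 members, 1522 nt, and 8 of the 10 lay over 1000 nt apart, against 16 of all 41 members (39.0%) and 41.9% of all genes at 1000 nt or more. The 2 below that were MED26 (30 nt) and MED10 (235 nt). MED29 had the widest Mediator pair, 2788 nt, and the steepest change in length of all members, with 3′ UTRs of 2862 and 74 nt, a ratio of 38.7. MED22, of the head of Mediator, followed with 2596 nt (3195 and 599 nt). MED1, which nuclear receptors bind, had a pair 2290 nt apart (3188 and 898 nt), and MED14, the backbone of the complex, one of 1734 nt (2261 and 527 nt). Of these wide pairs, the MED22 dPAS and the MED1 pPAS had no poly(A) signal. The 20 nt after them held 18 and 16 A, a limit taken up below.

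MED13 and its paralog MED13L, alternative subunits that tie the CDK8 kinase module to the core, had similar proportions. Their PASs were 1806 and 1287 nt apart, their long 3′ UTRs were 3862 and 2688 nt, and their short ones 2056 and 1401 nt, so that the ratios were 1.88 and 1.92. Neither had AATAAA or ATTAAA at the pPAS, and both had AATAAA at the dPAS. MED21 and MED28, at 1169 and 1309 nt, had 3′ UTRs of 1288 and 119 nt and of 1828 and 519 nt, and both had ATTAAA at the dPAS.

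MED26, the subunit through which Mediator takes up elongation factors, had the closest pair of the list. Its sites are printed because the 30 nt that end at the dPAS are the same bases that follow the pPAS.
MED26 dPAS (chr19:16685723-16685752, minus strand): aAATAAAaaaaaaaaaaaaaccatttgcac
MED26 pPAS (chr19:16685753-16685782, minus strand): gtaagtggacaccttgtgatataaatgtgg
MED26 pPAS, 20 nt after it (chr19:16685733-16685752, minus strand): AAAtAAAAAAAAAAAAAAAA
The AATAAA counted for the dPAS lay 29 nt before it, inside a run of A that starts right after the pPAS. The 20 nt after the pPAS held 19 A (capitals in the last line). How the reads divided between these positions was not tested.

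In 3 genes of elongation, short distances came with long 3′ UTRs. ELL, an elongation factor, had a pair 230 nt apart (2087 and 1857 nt), CCNT1, the main cyclin of P-TEFb, one 363 nt apart (4570 and 4207 nt), and CCNT2, its paralog, one 388 nt apart (2856 and 2468 nt). In these genes the long form was 1.09 to 1.16 times the short one. ELL2, the ELL paralog known from plasma cells, differed from them, with a pair 2270 nt apart (3771 and 1501 nt). CCNK, cyclin K, the partner of CDK12 and CDK13, had a pair 208 nt apart (732 and 524 nt). SUPT6H, a histone chaperone that travels with the polymerase, had a pair 498 nt apart, SUPT4H1, a DSIF subunit, one of 718 nt, and SUPT16H, a subunit of the chaperone FACT, one of 897 nt, with ratios of long to short of 5.65, 3.15 and 4.30.

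INTS4, part of the module that holds the RNA-cutting subunits of Integrator, had PASs only 41 nt apart, with 3′ UTRs of 227 and 186 nt. Both sites are shown, since each carried its own signal at the same spacing.
INTS4 dPAS (chr11:77589768-77589797, minus strand): tcctgtccacAATAAAgttgagaaaacacc
INTS4 pPAS (chr11:77589809-77589838, minus strand): ttcATTAAAaAATAAAaaaccttcaagtct
The pPAS window held ATTAAA and, right behind it, AATAAA, and AATAAA began 20 nt before the PAS in both. The PASs of INTS4 also lay inside AAMDC on the opposite strand. An overlap with a protein-coding gene on the opposite strand was also present at a PAS of CCNK (CCDC85C), POLR1G (ERCC1) and TAF1C (DNAAF1).

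A poly(A) signal, AATAAA or ATTAAA within the 40 nt up to the PAS, was present at the dPAS of 35 members (85.4%, against 80.3% of all genes) and at the pPAS of 25 members (61.0%, against 55.5%). In windows of the same width placed 100 nt farther upstream, it was found at 2 dPASs and 0 pPASs of the members, and at 6.83% and 3.45% of all genes. In pairs about 100 nt apart, this window of the dPAS can hold the signal of the pPAS. The dPAS value is therefore not a pure background, and such cases were not counted. The share with AATAAA was lower at the pPASs than at the dPASs. AATAAA stood at 29 dPASs (70.7%) and 13 pPASs (31.7%) of the members, against 64.6% and 40.3% of all genes. ATTAAA without AATAAA stood at 6 dPASs (14.6%) and 12 pPASs (29.3%) of the members, against 15.7% and 15.2% of all genes. The 12 pPASs with ATTAAA alone, of the 25 with a signal, were in CCNK, CCNT2, ELL, GTF2A1, GTF2H1, GTF3C1, MED10, MED21, MED22, POLR1A, POLR1G and POLR2M. The signal began a median of 21 nt before the PAS at both sites in the members.

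**Figure D3:**
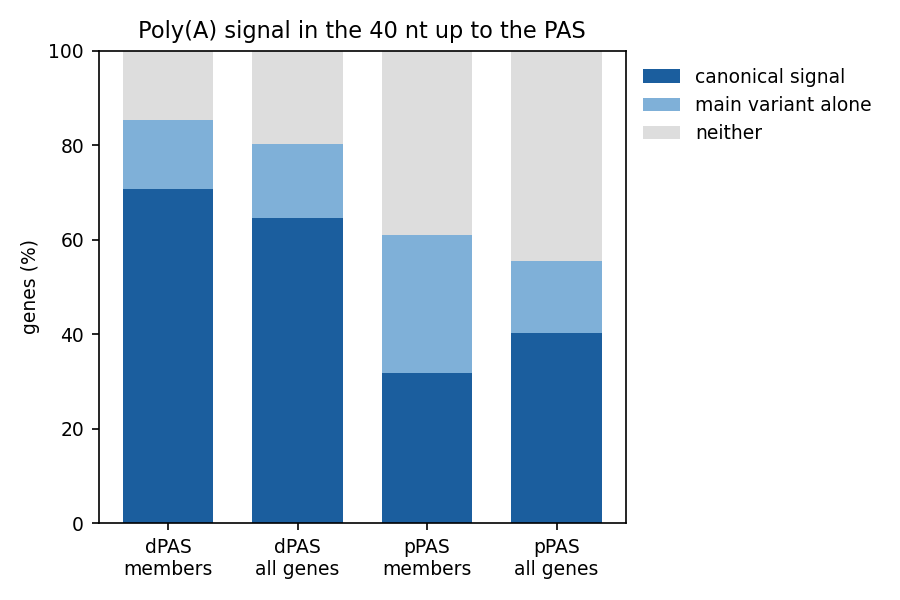
Percent of genes with the canonical signal, AATAAA (dark blue), with ATTAAA alone (light blue), or with neither (grey) in the 40 nt up to the dPAS (left pair of bars) and the pPAS (right pair), for the 41 members and all 2723 genes. The light blue part is widest at the pPASs of the members, 29.3%.

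By pair, 22 members had a signal at both PASs (53.7%, against 45.5% of all genes) and 13 at the dPAS alone (31.7%, against 34.9%). A further 3 had it at the pPAS alone (7.32%, against 10%) and 3 at neither (7.32%, against 9.66%). In the Mediator group 9 of 10 dPASs and 4 of 10 pPASs had a signal, and in the polymerase subunits 10 of 12 and 9 of 12. The members without a signal at the dPAS were GTF3C3, MED22, POLR2M, POLR3K, SUPT4H1 and SUPT7L. Of these, GTF3C3, POLR3K and SUPT7L had none at the pPAS either. A single-base variant of AATAAA stood in the dPAS window of POLR2M and SUPT7L (AATAAT) and of SUPT4H1 (TATAAA). Such a variant without a signal stood at 3 dPASs (7.32%, against 11.8% of all genes) and at 12 pPASs (29.3%, against 21.4%).
POLR2M dPAS (chr15:58009725-58009754, plus strand): ttgacttatataaaaatagaataatactat
SUPT7L dPAS (chr2:27875938-27875967, minus strand): tgtgcttgaatagactaataatatatgctc
SUPT4H1 dPAS (chr17:56422555-56422584, minus strand): tgtgaaaattatataagtattataaaggtg
GTF3C3 dPAS (chr2:197629105-197629134, minus strand): cttgtggtatatatgcaaaattattcctac
These windows are printed to show what stood where a signal was not found. They were rich in A and T, and no capitals appear because none held a signal or a TGTA.

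Genomic A runs matter in this assay, since oligo(dT) can prime on A inside a transcript as well as on its tail. A-rich sequence, defined as 12 or more A, or 6 A in a row, within the 20 nt after the PAS, followed the dPAS of 1 member (2.44%, against 10.2% of all genes) and the pPAS of 9 members (22.0%, against 26.7%). The member at the dPAS was MED22, with 18 A of 20. At the pPAS, GTF2H3, MED26 and POLR3A had 19 A, CCNT1 17, MED1 16, TAF8 12, GTF3C4 10, GTF2A1 9 and POLR2D 7. Of these 9, GTF2A1, GTF3C4, POLR2D and TAF8 had a poly(A) signal in front, and the 5 with the most A did not (12.2% of members, against 23.4% of all genes). Whether reads at these sites came from internal A was not tested.

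The next measure was the number of TGTA, the DNA form of the CFIm25 site UGUA, over the 100 nt that end at each PAS. The members held 24 TGTA up to their dPASs, a mean of 0.585 ± 0.741 per gene, and 25 up to their pPASs, 0.610 ± 0.802 (SD over the 41 genes). All genes had means of 0.943 ± 0.999 and 0.743 ± 0.939. The difference, dPAS minus pPAS, averaged −0.0244 ± 0.962 in the members and 0.200 ± 1.33 in all genes (SD over genes). In the 4 pairs under 100 nt apart, GTF3C1, GTF3C3, INTS4 and MED26, the windows of the PASs overlap. TGTA was present at 19 dPASs (46.3%, against 60.0% of all genes) and at 19 pPASs (46.3%, against 49.4%).

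**Figure D4:**
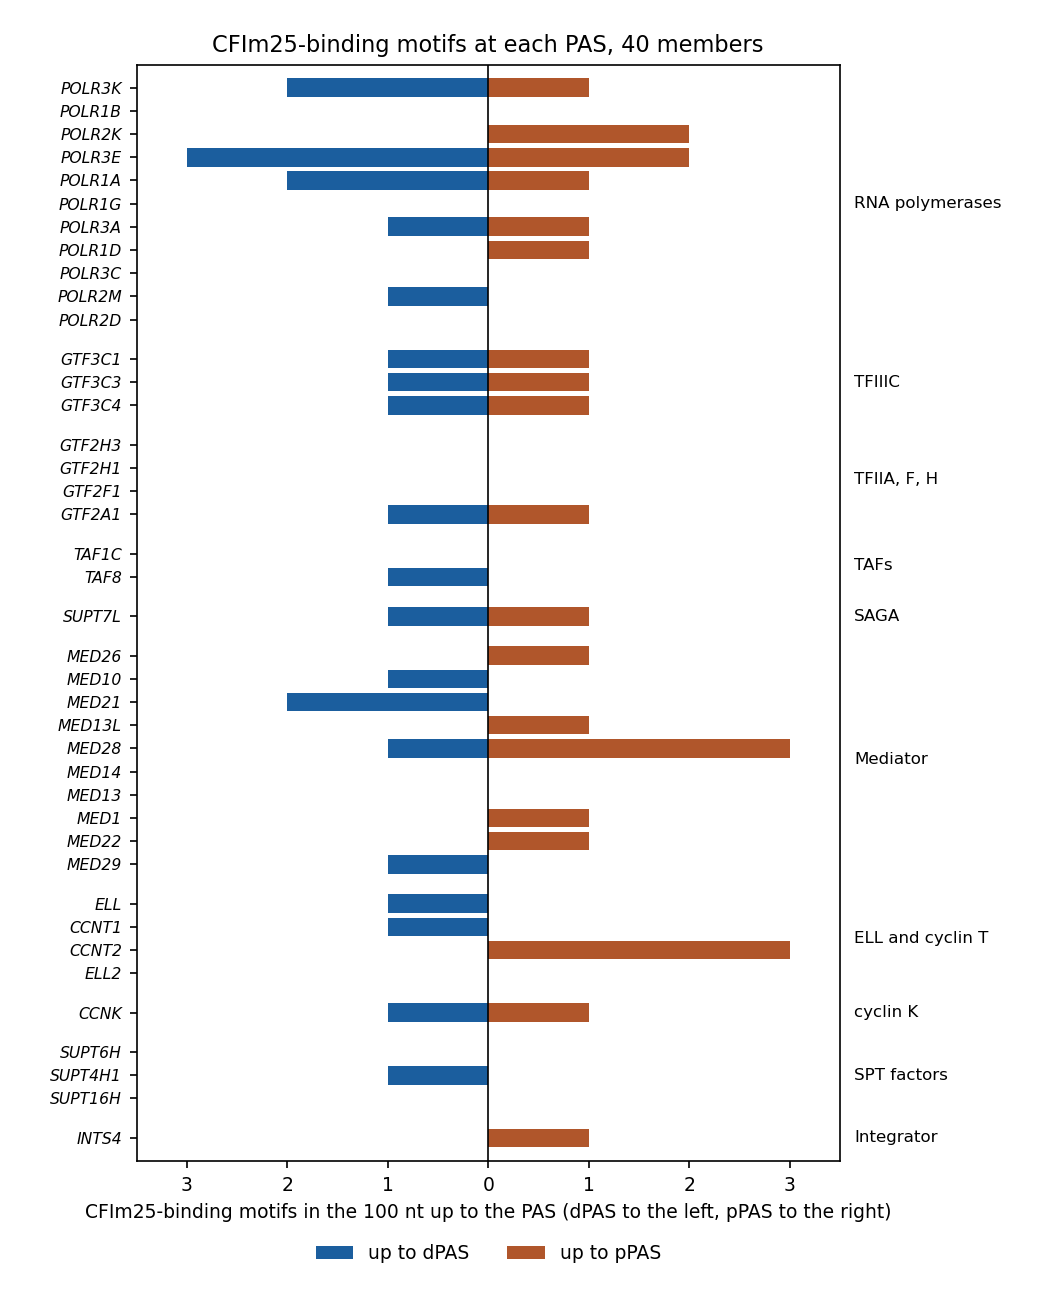
Number of TGTA motifs, the sequence CFIm25 binds as UGUA, in the 100 nt up to the dPAS (bars to the left) and up to the pPAS (bars to the right) of 40 members, grouped by role. No member has more than 3 at a site.

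By gene, 11 members had more TGTA at the dPAS (26.8%, against 36.6% of all genes), 9 had fewer (22.0%, against 25.8%), and 21 had the same number (51.2%, against 37.6%). The counts and their order depended on the window: 5 members had more and 7 fewer over 50 nt, and 19 had more and 11 fewer over 200 nt. Among the 21 with equal numbers over 100 nt were 14 without any TGTA at either PAS (34.1%, against 22.4%), among them ELL2, GTF2F1, GTF2H1, GTF2H3, MED13, MED14, POLR1B, POLR1G, POLR2D, POLR3C, SUPT16H, SUPT6H and TAF1C. MED21, a subunit of the middle module of Mediator, had the largest difference toward the dPAS, with 2 at the dPAS and 0 at the pPAS. The 10 members with 1 more at the dPAS included POLR3E (3 and 2), POLR1A and POLR3K (2 and 1 each). In the other direction, CCNT2 had 0 at the dPAS and 3 at the pPAS, POLR2K had 0 and 2, and MED28 had 1 and 3. A further 6 members, INTS4, MED1, MED13L, MED22, MED26 and POLR1D, had 1 fewer at the dPAS.

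The stretches with the most TGTA at the sites with the largest differences are shown, along with that of POLR3K, where 2 TGTA stood close together at the dPAS. TGTA is in capitals.
MED21 dPAS, stretch with the most TGTA (chr12:27182642-27182671, plus strand): TGTAttttaattgatgtttattaaaaacac
CCNT2 pPAS, stretch with the most TGTA (chr2:135714510-135714539, plus strand): TGTAttcacttttcactcTGTAaaTGTAat
MED28 pPAS, stretch with the most TGTA (chr4:17625853-17625882, plus strand): TGTAgaaaagtaTGTAaatttgctctgttt
POLR3K dPAS, stretch with the most TGTA (chr16:97075-97104, minus strand): TGTActgttTGTAaaacttagtacatgtcc
In CCNT2 all 3 TGTA fell within 30 nt, which began 77 nt before its pPAS. The 30-nt stretch of MED21 held 1 of its 2 TGTA, 41 nt before the dPAS and ahead of ATTAAA, which is in lower case here.

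By position, the members' TGTA were most frequent 41 to 60 nt before the dPAS, with 12 motifs, or 29.3 per 100 genes, as were those of all genes (27.0 per 100). In the last 20 nt before the dPAS the members held 0 and all genes 7.05 per 100. The lower mean of the members at the dPAS was counted over the last 100 nt alone. Beyond it, they held more than all genes at 101 to 120 nt (24.4 against 18.2 per 100) and 121 to 140 nt (22.0 against 17.9). They also held more at 181 to 200 nt (19.5 against 12.9), and fewer at 141 to 160 nt (14.6 against 15.5) and 161 to 180 nt (9.76 against 14.4). At the pPAS the highest bin of the members was 61 to 80 nt (8 motifs, 19.5 per 100 genes), and that of all genes was 41 to 60 nt (19.3 per 100). The numbers of the members are small, and a single motif is worth 2.44 per 100 genes.

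**Figure D5:**
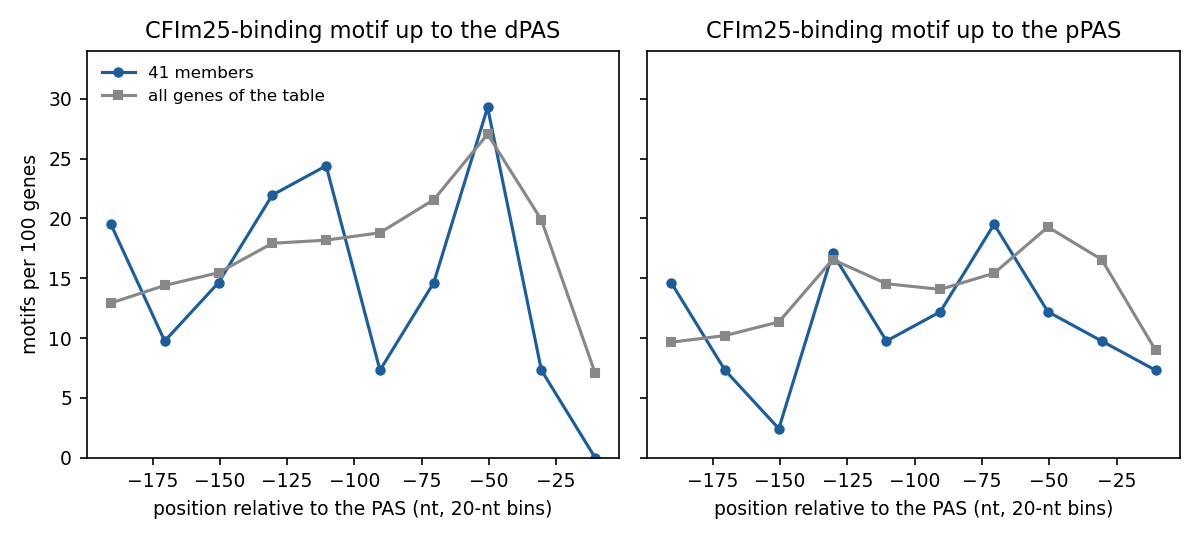
TGTA motifs per 100 genes in 20-nt bins before the dPAS (left) and the pPAS (right), each point at the middle of its bin, for the 41 members (blue) and all 2723 genes (grey). The members peak 41 to 60 nt before the dPAS, at 29.3 per 100 genes, where all genes have 27.0.

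The stretch between the PASs is the part that only the long mRNA carries. In the members its G and C content had a median of 36.7%, against 37.3% in all genes, with the lowest value, 16.7%, in MED26. TGTA was present in the stretch of 37 members (90.2%, against 85.9%), all but GTF2F1, INTS4, MED26 and TAF1C. It held a median of 6.17 TGTA per kb in the members and 5.71 in all genes. ATTTA, the core of AU-rich elements that bind factors of mRNA decay, was present in 30 members (73.2%, against 68.7% of all genes). By count, MED14 had 9 ATTTA, and MED13, POLR1D, POLR2D and POLR2M had 8 each. Per kb these were 5.19, 4.43, 6.90, 2.57 and 3.02, against a member median of 2.33. The highest density, 21.7 per kb, was that of GTF3C1, with 1 ATTTA in its 46 nt. TGTANATA, the Pumilio site, was present in 7 members (17.1%, against 21.3%), with 3 in GTF3C4, 2 each in MED1 and MED14, and 1 each in CCNK, MED28, POLR2M and TAF8.

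Seeds of 8 miRNAs known from myeloid cells were looked for in the same stretch, as the sequence complementary to bases 2 to 8. Those printed are miR-146a-5p and miR-424-5p, which matched the most members, and miR-223-3p, the miRNA best known from granulocytes. The mature sequences are from RefSeq (GRCh38.p14), with the seed in capitals.
hsa-miR-146a-5p: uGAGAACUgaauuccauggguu
hsa-miR-424-5p: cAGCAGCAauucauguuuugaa
hsa-miR-223-3p: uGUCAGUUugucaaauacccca
The match to miR-146a-5p (AGTTCTC) stood in 6 members, among them GTF2F1, MED1, MED22, POLR3A and TAF8 (14.6%, against 8.41% of all genes). That to miR-424-5p (TGCTGCT) stood in 6, ELL2, MED1, MED22, POLR1A, SUPT16H and SUPT6H (14.6%, against 15.9%), and that to miR-223-3p (AACTGAC) in MED29 and POLR2D (4.88%, against 6.24%). Matches to miR-181a-5p were in 2 members (4.88%, against 15.1%) and to miR-17-5p in 3 (7.32%, against 18.5%). Those to miR-21-5p were in 3 (7.32%, against 7.16%), to miR-155-5p in 1 (2.44%, against 8.01%) and to let-7a-5p in 1 (2.44%, against 6.61%). ELL2 and MED22 had matches to 3 of the 8 miRNAs each, in long stretches of 2270 and 2596 nt (member median 694 nt). No match was found in 24 members, and the same share over all genes was not counted. A match is a string of letters, and whether these miRNAs were present in the cells was not tested.

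The annotation placed the dPAS within 24 nt of an annotated transcript end in 31 members (75.6%, against 69.5% of all genes) and the pPAS in 9 members, against 707 of all 2723 genes. Among the pPASs near such an end were those of GTF2H1, INTS4, MED22, MED26, POLR1G, POLR3C, POLR3E and SUPT6H. Far from any annotated end were MED28, whose dPAS lay 8479 nt from the nearest, and CCNT2, GTF3C3, CCNK and MED21, with 1938, 1346, 926 and 924 nt. In these 5 genes an annotated 3′ UTR therefore extended past the dPAS that was listed as used.

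Partner genes that the name rule did not take, such as TBP, the PAF1 complex and the regulators of P-TEFb, were listed by symbol, and 16 of 62 were in the table. Their PASs were a median of 1049 nt apart. All 16 had a poly(A) signal at the dPAS and 7 had one at the pPAS. TBP, the TATA-binding protein, had 2 TGTA at the dPAS and 0 at the pPAS, and RTF1, a PAF1 complex partner, had 3 and 1. Fewer TGTA at the dPAS were found in 5 partners and equal numbers in 9. The super elongation complex gene MLLT1 had the closest partner pair, at 36 nt, and the phosphatase gene CTDSPL the widest, at 3356 nt. In both, the pPAS had no poly(A) signal and was followed by A-rich sequence. Such sequence followed the pPAS of 5 partners and the dPAS of 0.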

How the data were processed

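Total RNA of 6 HL-60 samples, 3 OE-CFIm25 and 3 OE-control, was sequenced with QuantSeq FWD. Reads were aligned to hg19 with STAR 2.7.7a, per the submitters' processing notes. The authors trimmed read 2, kept alignments at PASs of PolyA_DB (100 nt upstream to 25 nt downstream), matched read ends to a PAS within 24 nt, and deposited, per gene, the genome positions of the pPAS and dPAS, in nt. Other deposited columns hold the authors' log2 comparison of the groups, its adjusted p-value and a call, and were not used. Deposited mapping statistics, for 6 numbered libraries in 24 columns that match no sample label, were not used, so the depth behind a PAS is not given.

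Of 2724 rows, 1 repeat was dropped. Sequence was read in mRNA sense from GRCh37, the build of hg19, and annotation from GENCODE release 44 mapped to GRCh37, with protein-coding transcripts and exon gaps of up to 50 nt closed. For each gene, the transcript whose last exon holds both PASs and ends nearest to the dPAS set the 3′ UTR lengths. Motifs were searched on the mRNA strand alone, overlaps included. The rule for genes given with values took the widest and closest pair of each role, the extremes of the TGTA difference, members without a dPAS signal and members with A-rich sequence. The other members are named with their distance or in lists, and further values or sequences given for some of them were chosen after the values were seen. The members, lists and motifs were chosen with earlier results of these data known. No test was made. Motif searches were tested on simulated data. Other windows, thresholds and transcripts were tried. Some results on single members are not reported here, and they are counted in the totals. Python 3.11.15, numpy 2.4.6, pandas 2.3.3 and matplotlib 3.10.9 were used.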

Additional observations from a re-analysis of the deposited data

How the results depend on the processing

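Of 23 alternatives to the settings, 19 stayed within 1.5 times the value reported for the members. With AATAAA alone as the signal, 13 members had one at the pPAS, in place of 25, and 29 at the dPAS, in place of 35. With single-base variants of AATAAA counted as well, 37 members had one at the pPAS and 38 at the dPAS. Both of these are counted among the 19, yet the numbers at the pPAS and dPAS were then nearly equal. Members with more TGTA up to the dPAS than up to the pPAS numbered 11 in the 100 nt window, 5 in a 50 nt window and 19 in a 200 nt window, while those with fewer numbered 9, 7 and 11. With at least 14 A in 20 nt, 5 members were A-rich after the pPAS, in place of 9. Pairs at least 100 nt apart had a median distance of 897 nt, against 694 nt for all members. The transcript with the longest last exon changed the 3′ UTR lengths of CCNT2 (2756 and 2368 nt up to the dPAS and pPAS) and POLR1D (1457 and 297 nt). Without closing the exon gaps of the mapped annotation, a choice made after seeing the data, 39 members had both PASs in the last exon, without MED22 and POLR3C. Without the TCEAL and GTF2I families the members were the same 41, so this alternative, which is counted among the 19, could not differ. Another annotation of the same build was not run, since none was used here. No paired analysis was possible because the positions carry no replicate. Leaving out a sample was not run for the same reason, and the reads behind each PAS, which would limit a weakly used site, were not used.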
